A study of Homo sapiens with 6 samples.

Results

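The genes described here are 9 interferon regulators and interferon-stimulated genes: the transcription factors IRF1, IRF7 and IRF9 and the effectors ISG15, OAS1, IFI6, IFI27, IFIT1 and IFIT3. They were chosen by symbol among the 24462 gene symbols of the count tables, with earlier results of these data known. Each has 1 line per table. Expression was measured by RNA sequencing in LS 174T, an established human colorectal adenocarcinoma line that secretes mucins and serves as a goblet cell model. The control cells received no treatment (3 libraries), and the treated cells received propionate at 4 mM for 4 h (3 libraries). Both groups were the same line at passages 21-23. The labels do not tell separate cultures from repeat preparations within a group, so each p-value reflects only the variation among these libraries, part or all of which may be technical. Propionate is a short-chain fatty acid made by gut bacteria, and the labels name no interferon treatment in either group. These are bulk cultures, in which more expressing cells and more RNA per cell cannot be told apart.

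Interferons are secreted proteins that bind cell surface receptors and signal through the kinases JAK1, JAK2 and TYK2. Type I and type III interferons lead to a complex with STAT2 and IRF9 among its subunits that binds the interferon-stimulated response element, while interferon gamma acts through the gamma-activated site. IRF1 is itself induced through such sites and switches on many of the same genes, and IRF7 is the factor that amplifies transcription of interferon alpha genes. Intestinal epithelial cells keep a low resting level of these genes and raise them when they meet virus or interferon.

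The sequences before the transcription starts show what several of these genes share and where they differ, and 5 of them are printed for that reason. Each is the 200 bases before the RefSeq start (GRCh38.p14, the build of the sequence table; the submitters' processing notes name hg19 and GRCh37 for the counts), read 5′ to 3′ on the strand of the gene. Capitals mark matches to the core of the interferon-stimulated response element, GAAANNGAAA, and to the gamma-activated site, TTCNNNGAA, both searched on both strands. ISG15 lies at chr1:1013297-1013496 (plus strand), IFI6 at chr1:27672193-27672392 (minus), IFI27 at chr14:94110536-94110735 (plus, the first of its 2 listed starts), IFIT1 at chr10:89392423-89392622 (plus) and IRF1 at chr5:132490774-132490973 (minus).
ISG15: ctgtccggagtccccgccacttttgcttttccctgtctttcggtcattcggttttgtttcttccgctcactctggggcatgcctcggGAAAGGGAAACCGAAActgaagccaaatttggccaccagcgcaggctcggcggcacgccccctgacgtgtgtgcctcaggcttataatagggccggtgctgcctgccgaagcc
IFI6: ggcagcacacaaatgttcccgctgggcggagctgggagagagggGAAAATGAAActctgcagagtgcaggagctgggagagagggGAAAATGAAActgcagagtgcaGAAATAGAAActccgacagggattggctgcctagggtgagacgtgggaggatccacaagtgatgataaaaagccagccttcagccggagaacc
IFI27: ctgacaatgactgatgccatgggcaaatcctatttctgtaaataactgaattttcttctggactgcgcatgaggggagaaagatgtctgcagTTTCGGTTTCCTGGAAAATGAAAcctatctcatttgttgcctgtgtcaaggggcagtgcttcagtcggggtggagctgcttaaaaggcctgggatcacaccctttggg
IFIT1: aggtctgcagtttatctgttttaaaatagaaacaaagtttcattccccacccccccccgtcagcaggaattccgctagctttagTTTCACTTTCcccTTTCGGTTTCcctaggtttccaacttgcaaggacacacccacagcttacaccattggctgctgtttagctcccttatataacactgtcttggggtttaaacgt
IRF1: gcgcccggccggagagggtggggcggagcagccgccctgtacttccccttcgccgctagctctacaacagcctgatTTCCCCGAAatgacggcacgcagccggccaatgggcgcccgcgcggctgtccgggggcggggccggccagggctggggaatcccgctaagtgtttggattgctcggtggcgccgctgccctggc
ISG15 has 2 matches to the response element core that overlap each other, the first starting 113 bases before the transcription start. IFI6 has 3 matches, starting 156, 115 and 93 bases before it. In IFI27 the matches to the response element core and the match to the gamma-activated site overlap in 1 run of capitals. IFIT1 has 2 response element matches and IRF1 has 1 gamma-activated site match and no response element match. Of the 8 genes with a sequence in the table (IRF7 has none), 5 have the response element core between 250 bases before and 50 bases after a start, namely ISG15, IFI6, IFI27, IFIT1 and IFIT3, while IRF1, IRF9, OAS1 and IFI27 have the gamma-activated site. Over all 27305 genes of the table, 4.38% have the first motif and 9.38% the second. A match is a run of letters, not a measured binding site.

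Of the 9 genes, 7 had enough reads to be tested, each with at least 11 reads in every library, and 5 of these 7 rose with propionate: ISG15, IFI6, IRF1, OAS1 and IRF7. Of all 13605 genes tested, 17.2% rose and 17.0% fell (edgeR's quasi-likelihood test at 0.05 after Benjamini-Hochberg adjustment over all genes). In each of the 5 the propionate libraries lay all above the controls, which held for 22.4% of tested genes, while 22.7% had all of them below. The median log2 fold change of the 7 tested genes was 0.84, against -0.01 for all tested genes. Because the 9 genes were chosen with earlier results known, these contrasts with all genes are descriptions and not tests. IFI27 and IRF9 did not pass, and IFIT1 and IFIT3 had too few reads. In the following, levels are CPM (counts per 1000000 reads, with edgeR's normalization factors) and changes are log2 fold changes of propionate over control from the fit.

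**Figure D1:**
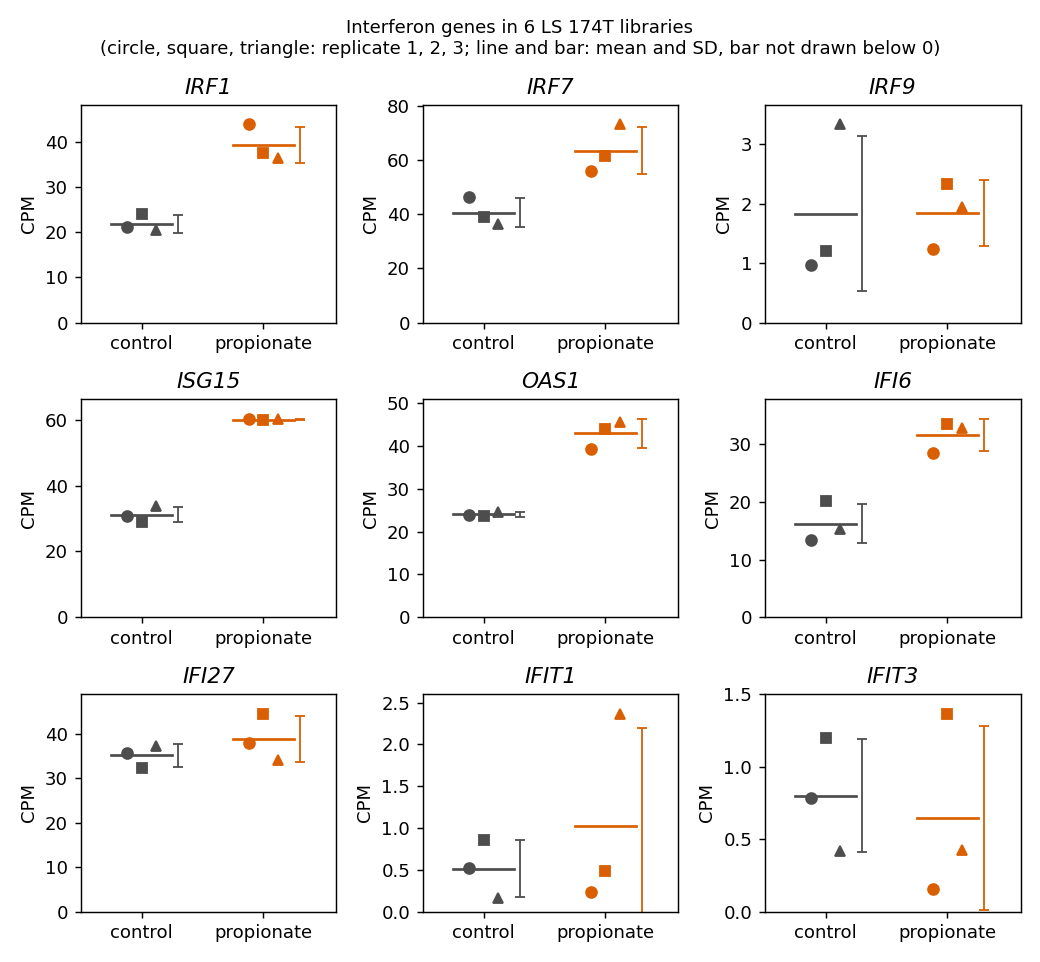
Level of each of the 9 genes in CPM (vertical axes from 0) in 3 control and 3 propionate libraries, with 1 point per library and the mean and SD of each group. The groups are apart for IRF1, IRF7, ISG15, OAS1 and IFI6, and they overlap for IFI27, IRF9, IFIT1 and IFIT3.

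Among the transcription factors, IRF1 had 21.1, 24.1 and 20.5 CPM in control replicates 1 to 3 and 43.9, 37.5 and 36.4 CPM with propionate. All 3 treated libraries were above the highest control, with the highest value in propionate replicate 1. The rise was 1.80-fold (log2 fold change 0.84, SE 0.117, edgeR adjusted p = 1.83e-05), from a mean of 21.9 ± 1.95 to 39.3 ± 4.02 CPM (SD, n = 3). Exons of C5orf56 overlap IRF1 on the opposite strand in GENCODE release 29, and whether the counting used strand is not stated. C5orf56 had a log2 fold change of -0.24 (edgeR adjusted p = 0.234).

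IRF7 stood at 46.4, 39.0 and 36.2 CPM in the controls and at 55.9, 61.3 and 73.0 CPM with propionate. The groups did not overlap, although the gap between the highest control and the lowest treated library was narrower than for IRF1, and both of those libraries carry replicate number 1. IRF7 rose 1.56-fold (log2 fold change 0.65, SE 0.116, edgeR adjusted p = 0.000263). Its longest transcript is 66.8% GC, higher than in 98.5% of tested genes with a value, and in the fifth of tested genes with the highest GC content 32.8% rose and 9.21% fell. With each library's trend on transcript GC removed, the log2 fold change of IRF7 was 0.34 (edgeR adjusted p = 0.0279), and that of IRF1, at 52.6% GC, was 0.81 (edgeR adjusted p = 2.88e-05).

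IRF9, the DNA-binding partner of STAT2, was rare, with 11, 14 and 40 reads in the controls and 16, 29 and 23 reads with propionate. Control replicate 3 held most of the control reads, and its value of 3.33 CPM lay above all treated libraries, which ran from 1.24 to 2.33 CPM. The fitted change was -0.00 on the log2 scale with an SE of 0.441 (edgeR adjusted p = 0.996). Without control replicate 3 it was 0.75 (edgeR adjusted p = 0.261).

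The other members of the interferon regulatory factor family were listed for comparison, together with the IRF2-binding proteins. Of 8 tested, 3 rose and 1 fell, with a median log2 fold change of 0.24. These few genes make shares of 37.5% and 12.5%, against 17.2% and 17.0% of all tested genes. IRF2BPL rose 1.41-fold (edgeR adjusted p = 0.00259), but not with the GC trend removed (edgeR adjusted p = 0.108). IRF8, a factor best known from myeloid cells, was 1.35-fold higher (edgeR adjusted p = 0.0313), a call lost without control replicate 1 or 2 or propionate replicate 1 or 3 (largest adjusted p = 0.169). IRF2BP2, a corepressor, fell 1.40-fold (edgeR adjusted p = 0.000661). IRF3, the factor that sensors of viral RNA activate, had a log2 fold change of -0.00 (edgeR adjusted p = 0.981), and IRF2, a repressor of interferon genes, had 0.04 (edgeR adjusted p = 0.836).

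ISG15 encodes a ubiquitin-like protein that is joined to other proteins and is also secreted. Its level was 30.9, 29.1 and 33.7 CPM in the controls and 60.2, 59.9 and 60.3 CPM with propionate. The treated libraries were nearly identical, and each was above every control. Over genes in general, libraries of 1 group differed beyond sampling noise, so agreement this close in 3 libraries need not hold in others. ISG15 rose 1.92-fold (log2 fold change 0.94, SE 0.0990, edgeR adjusted p = 7.72e-07), from 31.2 ± 2.34 to 60.1 ± 0.201 CPM (SD, n = 3), and had the smallest p of the 9 genes. Its transcript is 63.4% GC, and with the GC trend removed the log2 fold change was 0.69 (edgeR adjusted p = 3.63e-05).

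The enzymes that attach and remove ISG15 did not all move with it. UBE2L6, the conjugating enzyme, rose 1.74-fold, from 8.65, 9.40 and 9.16 CPM to 13.6, 18.6 and 15.1 CPM (edgeR adjusted p = 0.000829). UBA7, the activating enzyme, had a log2 fold change of -0.21 (SE 0.290, edgeR adjusted p = 0.613). HERC5, the ligase, was below the read minimum and is given because of its role, with its values seen: 1, 7 and 7 reads in the controls and 6, 13 and 26 with propionate, which is 2.87 times as many per library read (exact binomial 95% interval 1.57 to 5.54, counting error only).

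USP18, the protease that removes ISG15 and also dampens the type I receptor, went the other way, with 12.9, 16.4 and 12.4 CPM in the controls and 8.68, 11.4 and 8.45 CPM with propionate. It was 1.46-fold lower (edgeR adjusted p = 0.0196), a call lost without control replicate 2, propionate replicate 1 or propionate replicate 3 (largest adjusted p = 0.110). Within each library, the log2 ratio of ISG15 to USP18 reads was 1.26, 0.82 and 1.44 in the controls and 2.79, 2.39 and 2.83 with propionate. The difference was 1.5 (2-sided exact permutation p = 0.1, the smallest that 3 against 3 libraries can give). Every treated library lay above the controls for ISG15 and below them for USP18. The ratios therefore had to separate, and this p adds no support.

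OAS1 makes the short adenylate chains that act as a second messenger of the antiviral response when double-stranded RNA is present. Its controls were at 23.9, 23.6 and 24.6 CPM and its treated libraries at 39.2, 43.9 and 45.7 CPM. The controls differed little, and the lowest treated library was far above them. OAS1 rose 1.78-fold (log2 fold change 0.84, SE 0.107, edgeR adjusted p = 7.93e-06). Once GC was corrected the log2 fold change was 0.88 (edgeR adjusted p = 3.63e-06).

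The relatives of OAS1 differed among themselves. OASL, a family member without synthase activity, was rare in the controls, with 7, 5 and 3 reads, and had 29, 34 and 40 reads with propionate. It rose 6.38-fold (log2 fold change 2.67, SE 0.445, edgeR adjusted p = 0.000121) and remained a rare transcript, at 2.79 CPM. OAS3 was at 32.7, 31.2 and 27.0 CPM and at 36.8, 33.9 and 34.0 CPM, a log2 fold change of 0.21 that did not pass (SE 0.110, edgeR adjusted p = 0.161). Its treated libraries still lay all above its controls, which held for 22.4% of tested genes. OAS2 was listed at 0 in all 6 libraries, where 3 reads would be 0.235 to 0.259 CPM.

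The log2 ratio of OAS1 to OAS3 reads per library was -0.45, -0.40 and -0.13 in the controls and 0.09, 0.37 and 0.43 with propionate. The difference was 0.63 (2-sided exact permutation p = 0.1, the smallest possible). This pair was picked with the values of both genes seen, so the p is no separate support.

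IFI6 and IFI27 encode small hydrophobic proteins of the same family. IFI6 had 13.5, 20.1 and 15.2 CPM in the controls and 28.4, 33.6 and 32.9 CPM with propionate. Control replicate 2 was the highest control, and it was still below all treated libraries. IFI6 rose 1.94-fold (log2 fold change 0.96, SE 0.143, edgeR adjusted p = 3.81e-05), and its log2 fold change was 0.85 with the GC trend removed (edgeR adjusted p = 0.000118).

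IFI27 was at 35.7, 32.2 and 37.3 CPM in the controls and at 37.8, 44.5 and 34.1 CPM with propionate. The groups overlapped, with propionate replicate 3 below 2 of the controls. Its log2 fold change was 0.15 (SE 0.115, edgeR adjusted p = 0.356). The neighbouring relatives IFI27L1 and IFI27L2 had log2 fold changes of 0.19 (edgeR adjusted p = 0.216) and 0.44 (edgeR adjusted p = 0.0801, and 0.0153 in the fit with the replicate block).

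The log2 ratio of IFI6 to IFI27 reads was -1.41, -0.68 and -1.29 in the controls and -0.41, -0.41 and -0.05 with propionate. All treated ratios were above all control ratios, with a difference of 0.84 (2-sided exact permutation p = 0.1, the smallest possible). IFI6 and IFI27 were also paired with their values seen, so this p is no separate support. In the sequences printed above, both genes hold the response element core before their starts.

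IFIT1 and IFIT3 encode proteins that bind foreign RNA and its complexes, and both were close to silent in this line. IFIT1 had 6, 10 and 2 reads in the controls and 3, 6 and 28 with propionate. Propionate replicate 3 alone held most of the treated reads, and the other treated libraries lay within the range of the controls. The ratio of summed reads over library totals was 1.96 (exact binomial 95% interval 1.09 to 3.67, counting error only), and without that library its log2 value went from 0.97 to -0.52. Tested with no filter on low counts, IFIT1 had an edgeR adjusted p of 0.310.

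IFIT3 had 9, 14 and 5 reads in the controls and 2, 17 and 5 with propionate. The groups overlapped, and the ratio was 0.819 (exact binomial 95% interval 0.455 to 1.47). Without propionate replicate 2 its log2 value went from -0.29 to -1.46. IFIT2, of the same family, had 24 control reads in sum and 14 treated reads (ratio 0.557, interval 0.267 to 1.12), and IFIT5 had a log2 fold change of -0.04 (SE 0.190, edgeR adjusted p = 0.888).

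**Figure D2:**
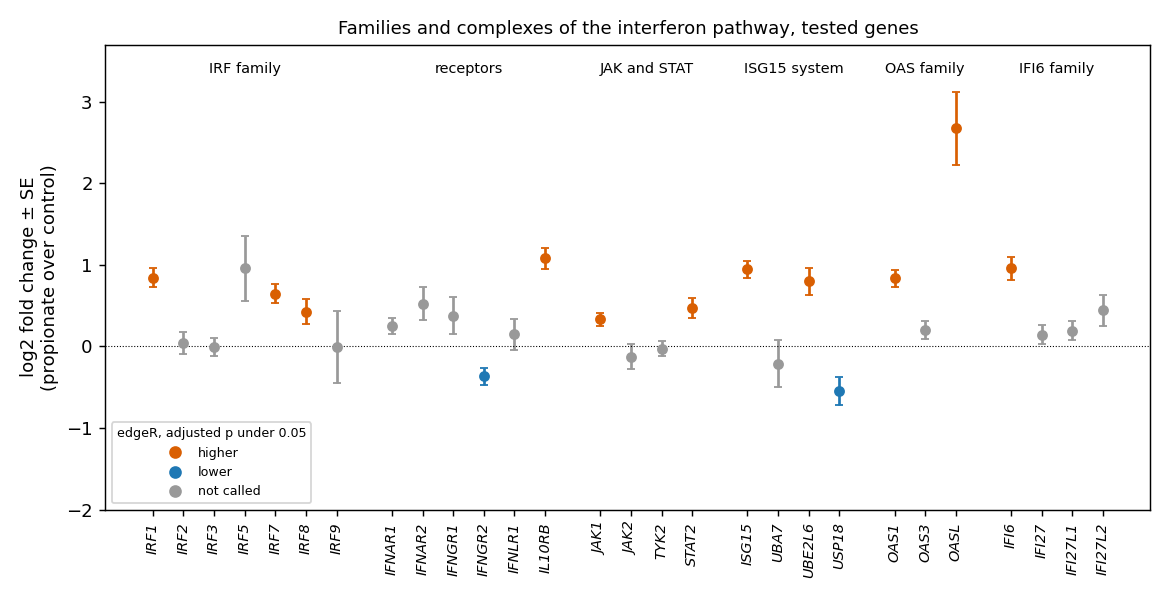
Log2 fold change of propionate over control with its SE (vertical axis, edgeR fit over 3 and 3 libraries) for tested genes, grouped by family or complex. ISG15 and UBE2L6 lie above 0 and USP18 below it, OAS1 and OASL lie above OAS3, and IFI6 lies above IFI27 and its relatives.

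The log2 fold changes of the 5 genes that rose lay between 0.65 (IRF7) and 0.96 (IFI6), with SEs between 0.0990 and 0.143. With the GC trend removed they lay further apart, between 0.34 (IRF7) and 0.88 (OAS1). ISG15 ran closest to OAS1: after centring on their means, their log2 CPM profiles differed by 0.0979 (root mean square over the 6 libraries), against 0.162 for IRF1, 0.222 for IFI6 and 0.233 for IRF7. Outside the interferon lists, the profiles most like that of ISG15 among 10686 genes above 5 CPM were those of PPL, which encodes periplakin (0.0487), GNAI2, which encodes an inhibitory G protein subunit (0.0537), and FBXL16 (0.0560). In all, 23 of those genes were within 0.1 of ISG15. The summed level of the 6 effector genes was 105.4, 107.0 and 111.5 CPM in the controls and 166.1, 183.7 and 175.7 CPM with propionate.

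The rest of the pathway was described with lists of ligands, receptors, sensors, regulators and targets. Of 167 such genes in the tables, 144 had reads and 118 could be tested, and 25 of these rose and 16 fell (21.2% and 13.6%, against 17.2% and 17.0% of all genes tested). Their median log2 fold change was 0.03, and that of all tested genes was -0.01. Of the 25, 14 stayed called whichever library was left out, and of the 16, 6 did. Without propionate replicate 2, 19 of 118 tested genes of these lists rose and 9 fell. Of all 13772 genes tested in that fit, 1984 rose and 1868 fell.

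Transcripts of the interferons themselves were almost absent. Of 21 interferon genes in the tables, 18 had no read. IFNB1 had 1 read in control replicate 2, IFNE had 3 reads in propionate replicate 2, and IFNL1 had 5 reads, all in propionate replicate 1. Read counts this low show neither a rise nor its absence.

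Of 11 genes for receptor chains, kinases and STAT proteins, 3 rose and 2 fell (27.3% and 18.2%, against 17.2% and 17.0% of all tested genes). With the replicate block, and also with the GC trend removed, 5 rose and 2 fell. Of all genes, 21.9% rose and 22.6% fell with the block, and 17.1% rose and 16.4% fell with the GC trend removed. IL10RB, the chain shared by the receptors for type III interferons and interleukin-10, rose 2.12-fold, from 14.5, 18.1 and 14.5 CPM to 30.2, 33.4 and 36.3 CPM (edgeR adjusted p = 3.6e-06). Its partner chain for type III interferons, IFNLR1, had a log2 fold change of 0.15 (edgeR adjusted p = 0.589). The type I receptor chains IFNAR1 and IFNAR2 missed the threshold, at 0.25 (edgeR adjusted p = 0.0588, and 0.00548 with the block) and 0.53 (edgeR adjusted p = 0.0540, and 0.0270 with the block). For interferon gamma, IFNGR2 fell 1.29-fold (edgeR adjusted p = 0.00925, and 0.0543 without propionate replicate 2), while IFNGR1 had a log2 fold change of 0.38 that did not pass (edgeR adjusted p = 0.214).

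Downstream of the receptors, JAK1 rose 1.26-fold (edgeR adjusted p = 0.00419), while JAK2 and TYK2 had log2 fold changes of -0.13 (edgeR adjusted p = 0.558) and -0.03 (edgeR adjusted p = 0.853, and 0.0459 at a log2 fold change of -0.24 with the GC trend removed). STAT2 rose 1.39-fold, from 22.3, 27.0 and 28.1 CPM to 41.2, 33.2 and 33.3 CPM (edgeR adjusted p = 0.00563, and 0.0512 without propionate replicate 1). Its partner in the complex that binds the response element, IRF9, had a change smaller than its SE.

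Among negative regulators, 1 of 11 tested genes rose and 3 fell (9.09% and 27.3%, against 17.2% and 17.0% of all tested genes). The phosphatase gene PTPN1 rose 1.35-fold (edgeR adjusted p = 0.000248) and PTPN2, which acts on JAK and STAT proteins, fell 1.51-fold (edgeR adjusted p = 0.000131). PIAS2 was lower along with USP18 (1.26-fold, edgeR adjusted p = 0.0272), but not with the GC trend removed (edgeR adjusted p = 0.238), and without control replicate 2 or any 1 of the propionate libraries it did not pass (largest adjusted p = 0.110). Of 14 tested genes of nucleic acid sensing, 3 rose and 3 fell, which is 21.4% in each direction and close to the 17.2% and 17.0% of all tested genes. MAVS, the adaptor of the RNA sensors on mitochondria, rose 1.38-fold (edgeR adjusted p = 0.00025), and DDX58, which encodes the sensor RIG-I, was 1.39-fold higher (edgeR adjusted p = 0.0358, and 0.191 at most without control replicate 1 or propionate replicate 1 or 2).

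DHX58, which encodes the related regulator LGP2, fell 1.82-fold (edgeR adjusted p = 0.00954, and 0.0503 without control replicate 3). MYD88, the adaptor of most Toll-like receptors, was 1.40-fold lower (edgeR adjusted p = 0.0216, and 0.115 at most without control replicate 3 or propionate replicate 2). RNF135 was 1.37-fold lower (edgeR adjusted p = 0.0230, and 0.0828 at most without control replicate 1 or propionate replicate 2 or 3). TRIM25, the ubiquitin ligase of RIG-I, was 1.17-fold higher (edgeR adjusted p = 0.0472), a call kept in 1 of the 6 fits with a library left out (largest adjusted p = 0.174).

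Of 44 tested genes in a list of others that type I interferon induces, 10 rose, 6 fell and 28 did not pass, with a median log2 fold change of 0.06. These shares, 22.7% and 13.6%, lie near those of all tested genes (17.2% and 17.0%). With the replicate block 11 rose and 8 fell, where 21.9% of all genes rose and 22.6% fell. With the GC trend removed 7 rose and 4 fell, where 17.1% of all genes rose and 16.4% fell. HELZ2, a helicase coactivator, rose 2.41-fold, from 17.6, 20.3 and 19.2 CPM to 38.0, 45.5 and 54.2 CPM (edgeR adjusted p = 5.96e-07). PML, the scaffold of PML nuclear bodies, rose 1.83-fold (edgeR adjusted p = 8.19e-06), and TDRD7 rose 1.67-fold (edgeR adjusted p = 0.00319). OASL, given above, was also among the leading rises.

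In the same list NMI, which encodes a partner of STAT proteins, fell 1.95-fold, from 48.8, 52.7 and 49.1 CPM to 25.5, 27.0 and 24.9 CPM (edgeR adjusted p = 8.49e-07). DTX3L, a ubiquitin ligase, fell 1.64-fold (edgeR adjusted p = 1.4e-05), while PARP9, its partner protein and its neighbour on the opposite strand, had a log2 fold change of -0.11 (edgeR adjusted p = 0.551). CMPK2 was 1.71-fold lower (edgeR adjusted p = 0.0358, and 0.135 at most without control replicate 1 or 2 or propionate replicate 1 or 2). Among classical markers of an interferon response, picked with their values seen, MX1 had a log2 fold change of -0.30 (SE 0.275, edgeR adjusted p = 0.433). RSAD2, which encodes viperin, had 11 control reads in sum and 9 treated reads. ISG20 and IFITM3 of this list were 1.99-fold and 1.19-fold higher (edgeR adjusted p = 0.0183 and 0.0292). Both calls were lost in some fits with a library left out (largest adjusted p = 0.0922 and 0.150).

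Some rare genes of this list, picked after their values were seen, had fewer reads with propionate. IFI44 had 2, 6 and 5 reads in the controls and none with propionate (exact binomial 95% interval of the ratio 0 to 0.314). RTP4 had 5, 6 and 11 reads in the controls and 0, 2 and 0 with propionate (ratio 0.0869, exact binomial 95% interval 0.0099 to 0.353). Of the genes of this list that have a promoter sequence, the response element core was found in 4 of 8 that rose, in 3 of 5 that fell and in 15 of 25 that did not pass. These shares were not compared by a test.

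Of 28 tested targets of IRF1 and of interferon gamma, 4 rose and 1 fell. Of all tested genes 17.2% rose and 17.0% fell, so the share of rises, 14.3%, was near the background, and that of falls, 3.57%, was lower. With the replicate block 7 rose and 3 fell, where 21.9% of all genes rose and 22.6% fell. With the GC trend removed 5 rose and 3 fell, where 17.1% of all genes rose and 16.4% fell. PSMB9, an immunoproteasome subunit, rose 1.98-fold (edgeR adjusted p = 6.96e-05), and NLRC5, the activator of class I antigen presentation genes, rose 1.57-fold (edgeR adjusted p = 7.2e-05). HLA-E rose 1.35-fold (edgeR adjusted p = 0.000889), with the caution that class I genes are similar enough to exchange reads. PSME2, a proteasome activator subunit, was 1.20-fold higher (edgeR adjusted p = 0.0427, and 0.227 at most without control replicate 1 or 3 or propionate replicate 1 or 2).

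TAP1, which shares a promoter region with PSMB9, had a log2 fold change of 0.03 (SE 0.107, edgeR adjusted p = 0.867), and PSMB8 had -0.25 (edgeR adjusted p = 0.0617, and 0.0226 with the block). APOL6 fell 1.70-fold (edgeR adjusted p = 2.36e-05). The chemokine genes CXCL9, CXCL10 and CXCL11 together with CIITA and IDO1 had between 0 and 25 reads summed over each group. PSMB8 and PSMB9 exons overlap on opposite strands, so their reads may be mixed.

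**Figure D3:**
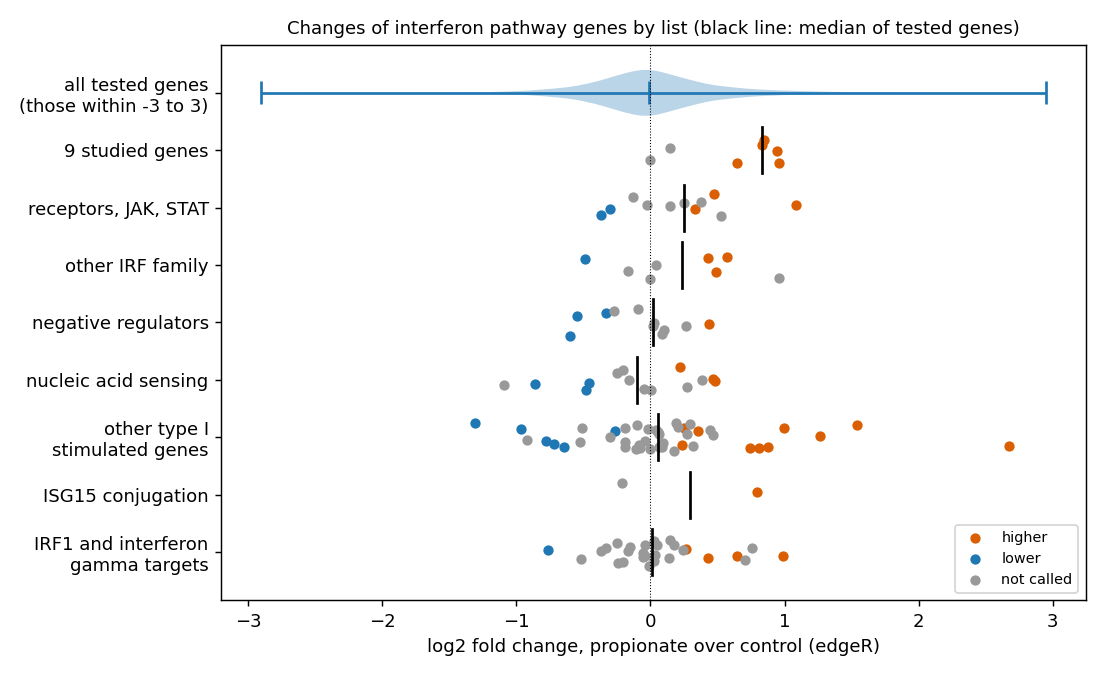
Log2 fold change of propionate over control (horizontal axis) for every tested gene of each list, with 1 point per gene coloured by its call, the list's median as a black line, and all tested genes within the drawn range as a violin at the top. The 9 chosen genes, of which 7 are drawn, have a median of 0.84, while the medians of the other lists lie between -0.10 and 0.29. The genes and lists were chosen with earlier results of these data known, so this contrast is not a test.

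The libraries held 11603288 to 12746170 reads. The epithelial markers EPCAM, KRT8, KRT18 and CDH1 were abundant. KRT20 was rare, at a mean of 1.26 CPM in the controls and 1.37 CPM with propionate. The 10 listed epithelial markers summed to 4226 to 5111 CPM in the controls and 4893 to 5587 CPM with propionate. Of these 10, CDX2, an intestinal transcription factor, fell 1.31-fold (edgeR adjusted p = 0.00374). KRT18 was 1.25-fold higher (edgeR adjusted p = 0.0240), but not with the GC trend removed (edgeR adjusted p = 0.111) or without control replicate 2 or 3 or propionate replicate 1 (largest adjusted p = 0.155). The 12 leukocyte markers summed to 2.58 to 3.85 CPM and 5.04 to 8.59 CPM, with CD3E, CD3D, LILRA4 and CLEC4C at 0, and PTPRC, the pan-leukocyte gene, had 0 reads in the controls and 1, 2 and 0 with propionate. CD14, a monocyte marker, was higher with propionate. The 10 stromal and endothelial markers summed to 3.75 to 7.16 CPM and 6.17 to 7.98 CPM, with DCN, CDH5, VWF and KDR at 0. COL1A1 rose 4.13-fold (edgeR adjusted p = 0.000219) and stayed rare, at 3.68 CPM. The other markers with reads did not all follow it. LUM had a log2 fold change of 0.02 (edgeR adjusted p = 0.980). COL3A1 had 26, 4 and 7 control reads and 9, 7 and 2 treated reads, and PDGFRB had 7, 10 and 3 and then 10, 9 and 15. PECAM1 had 2, 1 and 2 control reads and COL1A2 had 1, both with none in the treated libraries. The part of these marker genes in the rises of the interferon genes was not tested.

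**Figure D4:**
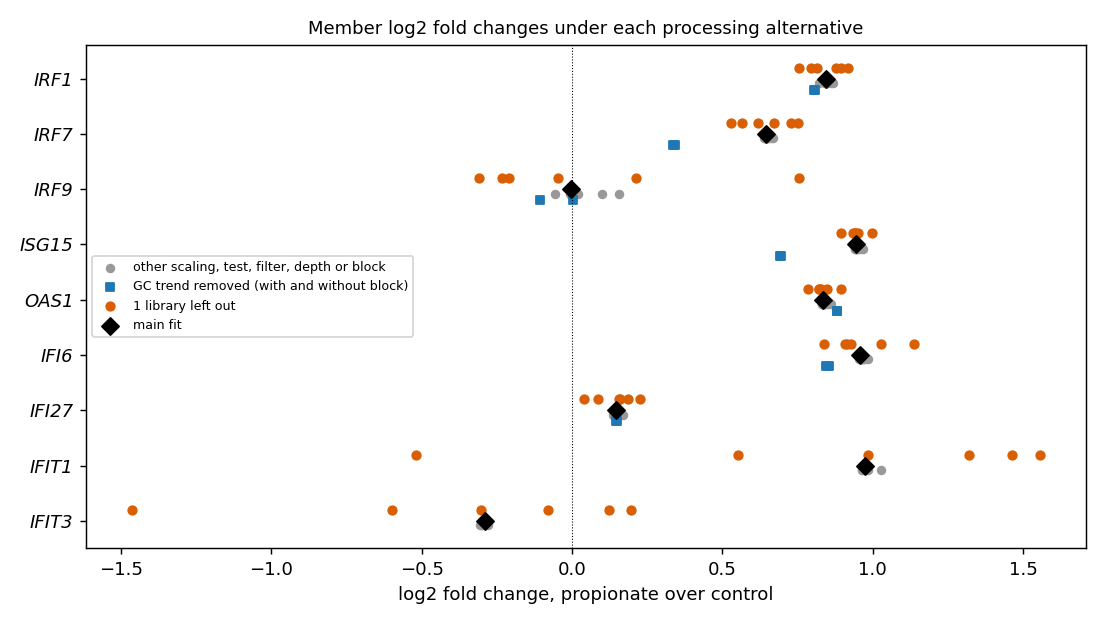
Log2 fold change of each of the 9 genes (horizontal axis) in the main fit (diamond) and under each alternative in scaling, test, filter, depth, pairing, GC content or libraries used. IRF1, IRF7, ISG15, OAS1 and IFI6 lie above 0 throughout, between 0.34 and 1.14, IFI27 lies between 0.04 and 0.23, and IRF9, IFIT1 and IFIT3 cross 0.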

How the data were processed

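The 3 control and 3 propionate libraries were made with a Lexogen QuantSeq kit from 500 ng of total RNA, per the labels' protocols. The kit name and the catalogue number in the labels may not refer to the same product, so whether reads come only from transcript 3′ ends, and how far whole-transcript GC describes them, is not settled here. Each library has 1 table of raw counts by gene symbol, as the authors deposited it. The submitters' processing notes name Bowtie2, edgeR, hg19 and GRCh37 with no role. What counted the reads, with which annotation and strand setting, is not given in the sources used here. Counts of the 286 symbols on several lines were summed. All genes kept by filterByExpr (13605) entered the quasi-likelihood F test of edgeR 4.0.16 in R 4.3.3, with TMM factors, no covariate and Benjamini-Hochberg adjustment. SEs are the log2 fold change over the root of F. A total of 3 reads is 0.235 to 0.259 CPM. Intervals and limits from reads cover counting error only, since no molecular identifiers are stated in the sources used here.

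On simulated counts of 13449 genes the test recovered 66.3% of 83 genes changed 1.5-fold and 85.5% of 55 changed 2-fold, with 9 false calls. A further 62 genes were changed 4-fold. In the measured data a far larger share was called (17.2% higher and 17.0% lower), so these rates need not hold there. Libraries of 1 group differed beyond sampling noise (chi-square per degree of freedom 6.01 to 8.85). Same-numbered libraries deviated together from their group means (r = 0.240, 0.396 and 0.442 over genes above 10 CPM), so the numbers were taken as pairs, from the data alone, and used as a block in an alternative fit. Other alternatives were RLE, upper-quartile and library-total scaling, limma-voom (limma 3.58.1), DESeq2 1.42.0, no or another filter on low counts, thinning and leaving out each library. Removal of each library's trend on the GC content of the longest GENCODE release 29 transcript (spline, 4 degrees of freedom, 93.4% of tested genes) was added after the data were seen.

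The 9 genes and the lists were chosen with earlier results of these data known. Genes were named by a rule: all 9, every ligand, receptor and STAT gene with reads, up to 4 called genes per list and direction with the smallest p, and the 3 profiles most like that of the member with the smallest p. Some genes that the rule names are not reported here. Others are named for their role in a family and were chosen with their values seen. Promoter sequences are from RefSeq.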

Additional observations from a re-analysis of the deposited data

How the results depend on the processing

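The rises of ISG15, IFI6, IRF1, IRF7 and OAS1 kept direction and call under all 17 alternatives each, IRF7 with the widest range (log2 fold change 0.34 to 0.75, adjusted p up to 0.0279), and IFI27 passed under none of its 17. The replicate block changed no call of the 7 tested genes (ISG15 0.95, IFI27 0.14). IRF9 changed sign around 0 without passing: 0.0013 with RLE factors, 0.021 with upper-quartile factors, 0.0061 with library totals, 0.0064 with DESeq2, 0.15 with limma-voom, 0.10 with the replicate block, 0.0019 with block and GC correction together, and -0.31 to 0.75 with a library left out. The summed-read log2 ratios ran from -0.52 to 1.56 for IFIT1 and from -1.46 to 0.20 for IFIT3 with a library left out. Of the other pathway genes, 17 to 24 rose and 9 to 14 fell with a library left out, and 23 to 32 rose and 14 to 20 fell under the other alternatives, where the block gave 32 and 20. Calls over all genes moved as well. With a library left out, 1984 to 2086 of all genes rose and 1865 to 1999 fell. Under the other alternatives 2174 to 2980 rose and 2083 to 3074 fell, where the block gave 2980 and 3074. IRF9, IFIT1 and IFIT3 had 2 to 40 reads per library. For IRF9 the value turned on control replicate 3, while thinning to the smallest library gave -0.06, and depth was not separated from the spread between libraries.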
